A study of Mus musculus with 16 samples.

Results

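The step from 8 to 24 h of stimulation was followed in wild-type regulatory T cells, as 4 of the 16 libraries of the series: WT 24 h (2 libraries) against WT 8 h (2 libraries). The libraries were chosen by their titles, and features were kept where the normalised count was 10 or more in at least 2 of these 4 libraries, which left 11346 of 27802. RNA was taken from splenic CD4+CD25high T cells sorted by flow cytometry. The wild-type donors (WT) were C57BL/6 mice. The series also holds cells from Sh2d2a knock-out mice (KO) of that strain, matched for sex and age, with ages and allele design not given in the sources used here. All 4 libraries of the step came from cells on plates coated with antibody 145-2C11 to CD3, at 1 µg/ml. Both genotypes also have 2 libraries each at 0 h, without the antibody, and at 2 h. No library held cells cultured for 8 or 24 h without the antibody, so time on the antibody and time in culture cannot be told apart. No label states that the libraries of a pair were made from different mice. The p-values here set a change against the spread between libraries of a pair, pooled over the groups of a fit. That spread may be only technical, so the p-values may not hold for other mice.

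Regulatory T cells restrain other immune cells and depend on the transcription factor Foxp3. They carry CD25, a chain of the high-affinity interleukin-2 receptor, by which they were sorted here. An antibody to CD3 engages the T-cell receptor complex, and the kinase Lck then starts a cascade that reaches early response genes first and metabolic, cell-cycle and effector genes later. Sh2d2a encodes TSAd, an adaptor that binds Lck.

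The features of the tables could not be given gene names. A symbol exists for 27789 of the 27802 listed identifiers, yet the values beside them do not go with those genes. Among 12 rows listed as genes that every cell uses, 9 had a mean normalised count under 10 over the 16 libraries, and those listed as Gapdh, Rplp0, Ptprc and Tbp were at 0 in all 4 libraries of the step. The row listed as Cd4 was also at 0 in all 4, and that listed as Foxp3 averaged 0.797 at 8 h and 0.216 at 24 h. The mean was under 10 for 4 of 13 rows listed as T-cell and regulatory T-cell markers, for 1 of 4 of B cells, for 0 of 3 of myeloid cells (the row for Itgam was not found) and for 3 of 3 of cytotoxic cells. The sorted cell type, its purity and the knock-out could therefore not be checked on these rows. Features are described below by their values, and an identifier marks a row, not a gene.

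The 4 libraries held 5435682 and 6366106 reads at 8 h and 10229138 and 3855427 reads at 24 h. A count of 0 allows for up to 3 reads by counting error alone, equal to a normalised count of 1.3 in the deepest and 3.44 in the shallowest of them. On the log2 scale over the tested features, the 2 libraries of 8 h correlated with a Pearson r of 0.975 and those of 24 h with 0.972, and pairs across the times with 0.967 to 0.971. These values are across features, which are not independent replicates. The median absolute log2 difference between libraries was 0.18 within 8 h, 0.19 within 24 h and 0.21 to 0.23 across the times. For most features the step was thus little larger than the spread between libraries of one time.

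Between 8 and 24 h 69 of the 11346 features changed, 51 higher and 18 lower at 24 h. This is 0.608% of the features tested (0.449% higher and 0.159% lower), by limma with Benjamini-Hochberg adjustment at 0.05 on log2(normalised count + 2), a scale that understates changes of low features. Of the 51 that rose, 14 had a log2 change of at least 1 on this scale, and of the 18 that fell, 3 had one of -1 or below. Log2 changes ran from 0.44 to 4.94 with a median of 0.81 among the risen features and from -1.52 to -0.43 with a median of -0.59 among the fallen, where the median of all tested features was 0.02. In bulk RNA, a change in the cells that make a transcript and a change in the RNA per cell cannot be told apart. At an unadjusted p under 0.05 there were 1122 features (9.89%), 702 higher and 420 lower. A further 32 higher and 24 lower features had a limma adjusted p between 0.05 and 0.1.

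The count of 69 changed when a library was left out. It was 18 without WT 8 h replicate 1, 7 without WT 8 h replicate 2, 9 without WT 24 h replicate 1 and 92 without WT 24 h replicate 2, the shallowest of the 4. In these fits the lone library of a group is assumed to vary like the other groups. A lone library also gives a less exact mean for its group, so lost calls need not mark the library left out as unusual. Of the 69 features 13, 6, 5 and 45 were among those called without each of these libraries. On the reads recovered from the normalised counts edgeR called 56 features (44 higher, 12 lower), 47 of them among the 69, and DESeq2 called 180 (110 higher, 70 lower), 68 of them among the 69.

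**Figure D1:**
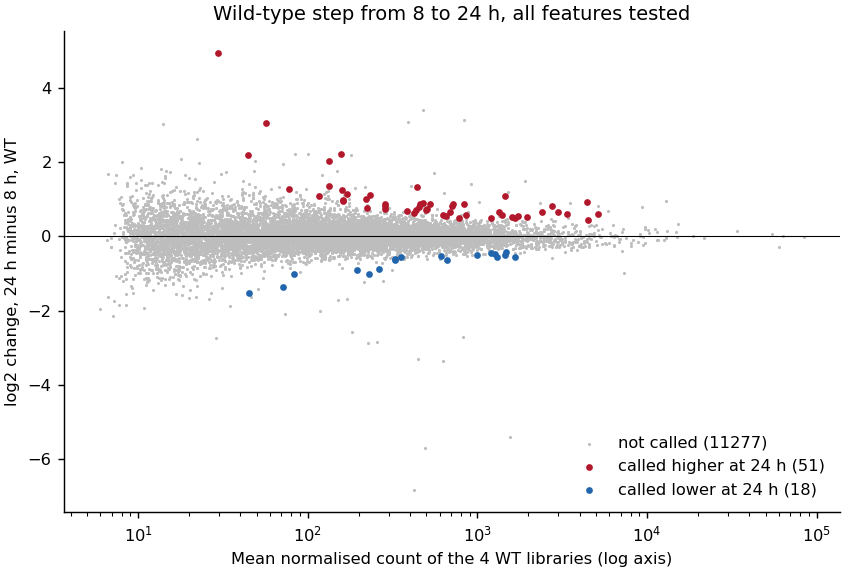
Log2 change from 8 to 24 h in WT (y axis) against the mean normalised count of the 4 libraries (x axis, log scale) for each of the 11346 tested features. Red points are the 51 features called higher and blue points the 18 called lower; the grey points far from 0 at high counts are features that were not called.

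Most of the 69 were well expressed. Their mean normalised count over the 4 libraries had a median of 498 for the risen and 481 for the fallen features, against 144 for all tested features. Tested features were divided by this mean into 4 bins of like size. In the highest bin, from 361 upward, 42 of 2837 were called (33 higher, 9 lower), and in the next, from 144 upward, 17 of 2836 (11 higher, 6 lower). In the bin from 48.3 to 144 the number was 7 of 2836, and in the lowest 3 of 2837. The median standard error of the log2 change went from 0.49 in the lowest bin to 0.13 in the highest, so changes of a given size were harder to detect among low features. Of the tested features 152 were under 10 in both libraries of one time and passed the filter only through the other, 1 of the risen features among them.

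The largest called rise was from no reads at all. The feature listed as ENSMUSG00000090812 was at 0 in both libraries of 8 h and at 65.3 and 53.9 in those of 24 h, where it rested on 151 and 47 reads. With 3 reads per library as the floor at 8 h, it was at least 26.7-fold higher at 24 h. This is the risen feature that passed the filter only through its 24 h libraries, so it had to differ between the times. It counts among the 51, but its values are given as a description without a test. In WT it had been at 1.5 and 0 at 0 h and at 1 and 0 at 2 h, and in KO it never exceeded 8.4 and was at 1.2 and 0 at 24 h. Only the 2 WT libraries of 24 h held this feature above 10.

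Among rises with a log2 change of at least 1, the feature listed as ENSMUSG00000021557 was the most abundant. It had normalised counts of 915.5 and 931.2 at 8 h and of 2049.2 and 1913.7 at 24 h. The log2 change was 1.10 with a standard error of 0.18 (limma adjusted p = 0.006). Before that it had been at 407.4 and 578.7 at 0 h and at 404.5 and 566.5 at 2 h, so its level stood higher at 8 h than at 2 h and higher again at 24 h. The log2 change from 2 to 8 h was 0.94 (limma adjusted p = 0.0283). That step shares the 8 h libraries with the step from 8 to 24 h. In KO it was at 602.5 and 452 at 8 h and at 541.9 and 494.1 at 24 h, with the times overlapping. Its WT change stayed between 1.05 and 1.15 over 18 alternatives, with adjusted p of 3.89e-07 to 0.127, and the call ended without WT 8 h replicate 1, WT 8 h replicate 2 or WT 24 h replicate 1.

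The other rises among the 10 largest are given by rank. The second went from 12.7 and 8.3 at 8 h to 128 and 77.9 at 24 h, a 9.8-fold difference of the means that rests on 16 and 12 reads at 8 h and on 296 and 68 at 24 h. Its earlier WT values were 3.1 to 5.3. The third went from 49.4 and 59.2 to 265.9 and 251 (4.76-fold; limma adjusted p = 0.000965), with a narrow spread at both times. All 4 earlier WT libraries of that feature lay between 22.6 and 30.1, below both libraries of 8 h.

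The fourth largest rise was from 19.1 and 11 to 77 and 69.9, and the earlier WT values of this feature, 6.3 to 19.4, overlapped those of 8 h. The fifth was from 45.4 and 57.8 to 208.4 and 225.8, with 45.3 to 78.6 before, and had the lowest adjusted p of the 10 (limma, 0.000212). The sixth was from 82.9 and 65.4 to 179.4 and 204. For these 3 the level at 8 h lay within or close to the range of 0 and 2 h, and both libraries of 24 h stood apart from it.

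The seventh rise went from 289.2 and 205.1 to 792 and 475.6, the widest spread at 24 h among the 10. The eighth was from 48.6 and 39.2 to 124.1 and 96.3, the ninth from 88.4 and 97 to 257.7 and 197.1, and the tenth from 101.2 and 111.5 to 241.7 and 231.5. In each of the 10 rises, the WT 24 h libraries were above all other 14 libraries of the series. The other 41 risen features had log2 changes of 0.44 to 1.13 and mean normalised counts of 74.7 to 4113 at 8 h.

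**Figure D2:**
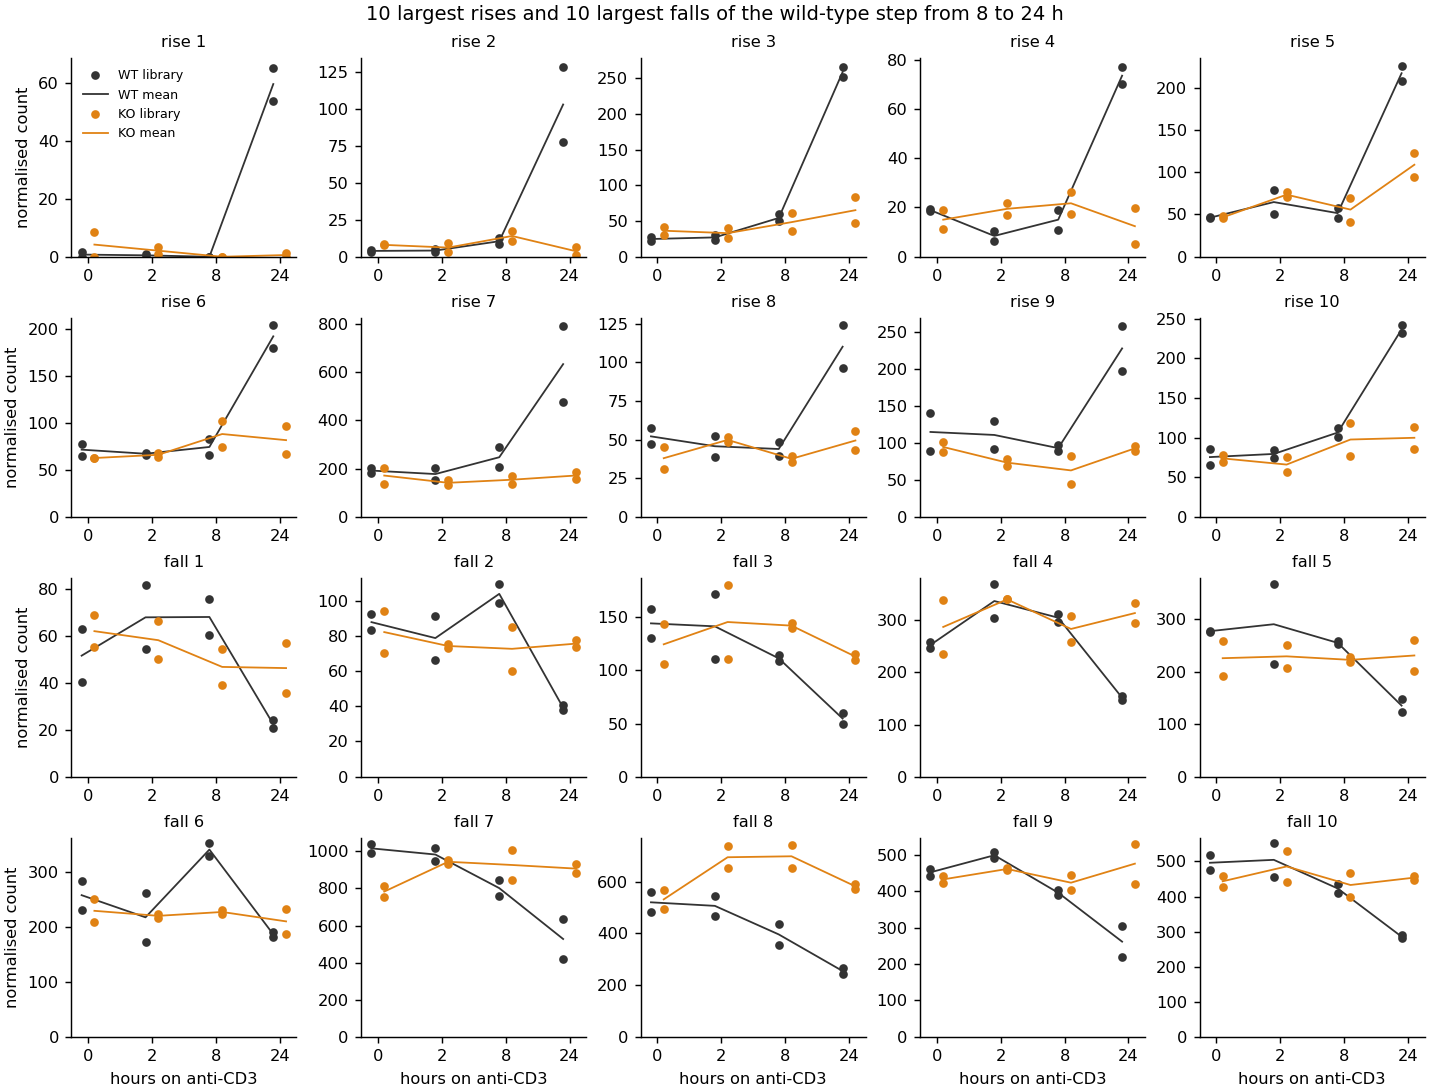
Normalised count (y axis, from 0) against hours on anti-CD3 (x axis, equal spacing) for the 10 largest rises and the 10 largest falls of the WT step, with a point per library and lines through the means of WT (black) and KO (orange). In the rises both WT points at 24 h lie above all others, the KO points at 24 h included; the highest KO points relative to WT are in the fifth rise, at 94.8 and 122.9.

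Among called features, falls were smaller than rises. The largest called fall was that of the feature listed as ENSMUSG00000067878, which had 60.6 and 75.7 at 8 h and 24.2 and 20.6 at 24 h. The log2 change was -1.52 with a standard error of 0.33 (limma adjusted p = 0.0203). It had been at 62.9 and 40.4 at 0 h and at 81.7 and 54.3 at 2 h, and KO was at 39.3 and 54.4 at 8 h and 35.7 and 57 at 24 h. Its WT libraries of 24 h were the lowest of the series. Over 17 alternatives the adjusted p was 0.00579 to 0.343, and the call was lost without any 1 of the 4 libraries, with no filter, with a prior that was not robust and with thinned reads.

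Of the 3 falls with a log2 change of -1 or below, the feature listed as ENSMUSG00000074768 had the highest mean. The next fall by size was more abundant and just missed that limit. ENSMUSG00000074768 went from 108.4 and 114.3 at 8 h to 60.1 and 49.3 at 24 h. Its log2 change was -1.01 with a standard error of 0.24 (limma adjusted p = 0.0456). Its 4 libraries of 0 and 2 h had ranged from 111 to 171.9. This call was near the threshold: the adjusted p ranged from 0.0232 to 0.374 over 18 alternatives and exceeded 0.05 in 8 of them, the loss of any 1 of the 4 libraries and edgeR included.

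By rank, the second fall went from 109.2 and 98.4 to 40.6 and 37.8, and the fourth from 297.2 and 312.5 to 155.2 and 147.8. The fifth was from 258.1 and 252.6 to 123.6 and 147.8. Each pair at 24 h lay below all 14 other libraries. The sixth fall was of another shape: the feature stood at 353 and 329 at 8 h, above its 173.1 to 284.5 at 0 and 2 h, and was at 181.6 and 191.4 at 24 h, among its earlier values.

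The seventh to the tenth were falls of abundant features with under 2-fold changes. The seventh went from 843.8 and 759.8 to 417.6 and 637.1, the eighth from 437.4 and 354.5 to 243.8 and 264.7, the ninth from 389.6 and 402.6 to 218.3 and 304.8, and the tenth from 435.8 and 410.2 to 282.3 and 288.8. In all 4 the group means at 8 h were already below those of 2 h. The other 8 fallen features had means of 716 to 1979 at 8 h and log2 changes of -0.55 to -0.43.

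The 6 most abundant called features all rose, by less than 2-fold. The first by mean over the 4 libraries had 3871.4 and 4355.3 at 8 h and 6559.8 and 5899.3 at 24 h, with 4109.8 to 4771.6 at 0 and 2 h in WT. The second had 3943.9 and 3663.6 at 8 h and 5561.1 and 4803.8 at 24 h, with 3583.4 to 3714.2 earlier. From 2 to 8 h their log2 changes were -0.11 and 0.05, and both stood above all other libraries at 24 h only. The third was at 1369 to 1635.7 at 0 and 2 h, at 2985.4 and 3115.8 at 8 h and at 6175 and 5414.6 at 24 h, about as large a ratio in the later step as in the earlier: log2 changes of 0.97 from 2 to 8 h and 0.92 from 8 to 24 h. The fourth and the sixth also stood higher at 8 h than at 2 h, with log2 changes of 0.47 and 1.31 there and of 0.6 and 0.83 from 8 to 24 h.

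As a set, the 51 risen features held 0.898% ± 0.0085 of the library's reads at 8 h and 1.44% ± 0.13 at 24 h in WT (SD, n = 2 each). At 0 and 2 h these features held 0.789% ± 0.041 and 0.777% ± 0.019. The 18 fallen features held 0.341% ± 0.0079 at 8 h and 0.231% ± 0.026 at 24 h, after 0.383% ± 0.0093 at 0 h and 0.39% ± 0.015 at 2 h (SD, n = 2 each). The sets were chosen by the change between the WT libraries of 8 and 24 h, so the difference between these times is a description. The median log2 change of the risen set was -0.02 from 0 to 2 h and 0.13 from 2 to 8 h, and that of the fallen set was 0.01 and -0.19. The first of these steps shares no library with the step from 8 to 24 h. In it 22 of the 51 risen features had a change above 0 (49.2% of all tested) and 8 of the 18 fallen a change below 0 (50.8% of all tested), so these shares did not exceed those of all tested features.

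**Figure D3:**
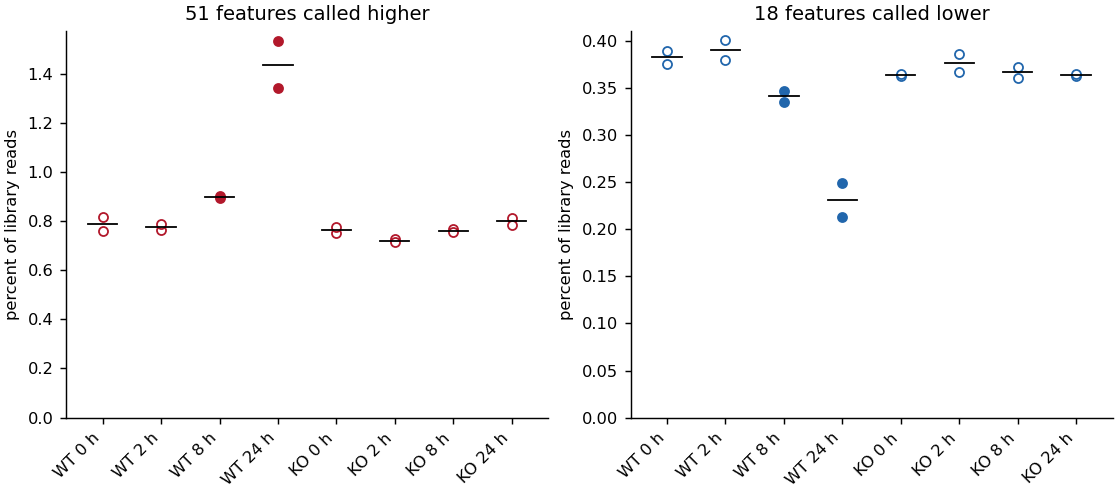
Percent of each library's reads (y axis, from 0) held by the 51 risen features (left) and the 18 fallen features (right) in the 8 groups, with a point per library and a bar at the group mean. Filled points mark the 4 libraries between which the change was called, with the spread of all 16 libraries as its error; the WT 24 h libraries lie above the others on the left and below them on the right, and the KO groups stay at 0.72 to 0.799% and at 0.364 to 0.377%.

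The preceding step, from 2 to 8 h in WT, was tested in the same fit. On the same 11346 features it gave 24, all higher at 8 h (0.212%), and 498 at an unadjusted p under 0.05 (4.39%). The step from 8 to 24 h gave 69. The spans of time differ, both steps use the 8 h libraries, and the difference between the counts was not tested. The count of the earlier step was 10 with edgeR and 42 with DESeq2. Without WT 2 h replicate 1 it was 22 (17 higher, 5 lower) and without WT 2 h replicate 2 it was 13 (8 higher, 5 lower), so the one-sided split rested on both. It was 7 without WT 8 h replicate 1. Without WT 8 h replicate 2 the order of the steps turned, with 10 calls from 2 to 8 h and 7 from 8 to 24 h.

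The same step was then read in the KO libraries. Their levels do not enter the WT change by which the features were chosen, but their spread entered the error of the fit over all 16 libraries. Fitted on the 4 WT libraries alone, the WT step had 116 calls, 61 of them among the 69. From 8 to 24 h limma called 0 features in KO (0%), with a lowest adjusted p of 0.121 and 793 features (6.99%) at an unadjusted p under 0.05. On the recovered reads edgeR called 0 (631 at an unadjusted p under 0.05) and DESeq2 0 (495). The count rested on both libraries of 8 h and both of 24 h: it was 5 without KO 8 h replicate 1, 34 without KO 8 h replicate 2, 2 without KO 24 h replicate 1 and 5 without KO 24 h replicate 2. Depth in these 4 KO libraries was 2065662 to 3570224 reads, below each of the 4 WT libraries of the step. With every library thinned to 2065662 reads the WT step had 58 calls (37 higher, 21 lower) and the KO step 0 (limma; 649 at an unadjusted p under 0.05).

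As sets, the features that moved in WT had small median changes in KO. The 51 risen features had a median log2 change of 0.05 in KO (0.81 in WT), and 33 of them had a KO change above 0, or 64.7% against 50.2% of all tested features. Both KO libraries of 24 h were above both of 8 h for 15 of the 51, a larger share than the 16.2% of all tested. The 18 fallen features had a median of -0.03 in KO (-0.59 in WT), 10 of them below 0 (49.8% of all tested). Both KO libraries of 24 h were below both of 8 h for 5 of the 18, beside 16.1% of all tested, too few features to set the shares apart. Neither this share nor that of the risen features was tested against all tested features. In each of the 69 the KO change was smaller in size than the WT change, but choosing features by their WT change enlarges that change. At an unadjusted p under 0.05 in KO (limma) there were 5 of the 51, 3 higher and 2 lower, and 1 of the 18, lower. Of all tested features 6.99% had such a p.

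The fifth largest WT rise was also the clearest in KO. There the feature went from 41.5 and 70.1 at 8 h to 94.8 and 122.9 at 24 h, which missed the threshold (log2 change 0.97, standard error 0.28; limma adjusted p = 0.485). The second largest WT rise was lower in KO at 24 h, at 1.2 and 6.3 after 10.9 and 17.2, but these values rest on 1, 5, 5 and 12 reads. At 24 h KO had lower values than WT for nearly all risen features: for 49 of the 51 the WT 24 h libraries lay above the other 14 libraries of the series (7.47% of all tested), and for 17 of the 18 fallen they lay below them (3.86% of all tested). These counts reuse the 24 h libraries on which the calls rest.

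**Figure D4:**
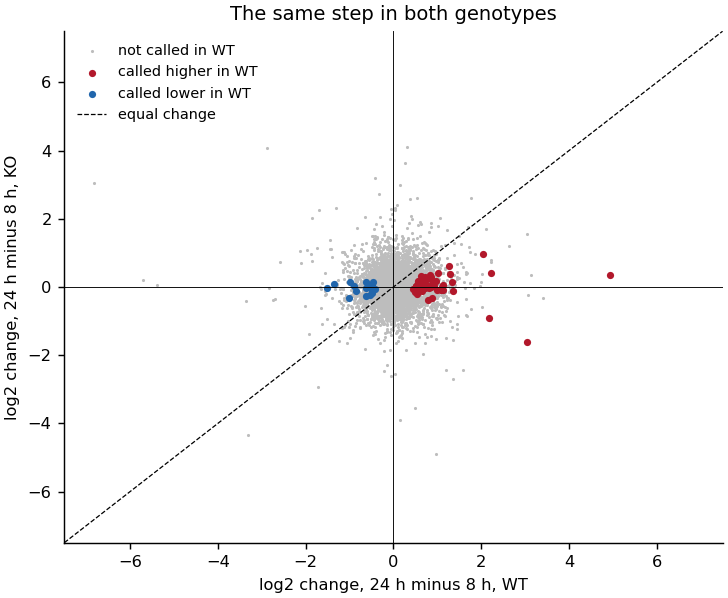
Log2 change from 8 to 24 h in KO (y axis) against that in WT (x axis) for the 11346 tested features, with the 51 risen (red) and 18 fallen (blue) features of the WT step. The coloured points spread along the WT axis, away from the dashed line of equal change. On the KO axis the red points lie between -1.6 and 0.97 and the blue points between -0.33 and 0.16.

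Whether the step differed between the genotypes was tested directly, as the WT change minus the KO change. The difference was called for 3 features (0.0264%), 2 with a larger change in WT (0.0176%) and 1 with a lower one (0.00881%), and 931 features (8.21%) had an unadjusted p under 0.05. The first was the third most abundant feature described above, at 1868.7 and 1705.2 in KO at 8 h and 2065.4 and 1617.9 at 24 h, with a difference of 0.89 ± 0.16 (SE; limma adjusted p = 0.0272). The second was the second largest rise, with a difference of 4.65 ± 0.87 (SE; limma adjusted p = 0.0272). The third was not called in WT. Its WT values fell from 31.9 and 50.2 to 11.7 and 10.3 (limma adjusted p = 0.104), and its KO values were 2.2 and 2.9 at 8 h and 33.3 and 11.4 at 24 h, a difference of -3.97 ± 0.68 (SE; limma adjusted p = 0.0179).

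The last of these rested on 1 and 2 reads in the KO libraries of 8 h, where KO had 28.1 to 39.9 at 0 and 2 h. In the next features of each direction, the WT step was higher by 0.73 ± 0.15 and lower by 1.15 ± 0.24 (SE), and both missed the threshold at a limma adjusted p of 0.0541. The former went from 1582.4 and 1603.7 to 2479.4 and 2126.9 in WT and from 1539.1 and 1702.3 to 1416.3 and 1397.5 in KO. The latter is the fourth largest fall, at 257.6 and 309 in KO at 8 h and 294.3 and 333.2 at 24 h. The count of 3 was 0 with edgeR (885 at an unadjusted p under 0.05) and 21 with DESeq2. The count also changed when single libraries were dropped. With a library left out, the log2 difference was 0.71 to 1.06 for the first of the 3 features. It was 3.97 to 5.33 for the second and -4.66 to -3.27 for the third. For the other features called in the WT step, the data do not show whether the genotypes differ in the step.

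Most of the largest changes by size were not called. Of 17 features with a mean normalised count of at least 100 and an absolute log2 change of at least 2, a limit chosen after the values were seen, 2 were called, and in 12 the 2 libraries of a group differed at least 8-fold. The largest of the 17 was at 1420.6 and 258.8 at 8 h and at 1.7 and 5.7 at 24 h, and a KO library of 24 h held 1863.7 where the other held 0. The second was at 1203.9 and 717.9 at 8 h and at 12.1 and 20.6 at 24 h, with 606.6 in a single WT library of 2 h and 14.7 in the other. Its log2 change was -5.70 ± 1.41 (SE; limma adjusted p = 0.165). Of the 17, 12 were not called although the times did not overlap. Among all tested features 23.3% had both 24 h libraries above both of 8 h and 19.3% had both below.

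In several of the 17 the libraries of a group were far apart, some with a library near 0. The third of the 17 was at 6242.6 and 11 in the libraries of 8 h and at 6.5 and 3.4 at 24 h; it was at 6967.7 to 8613.5 in the 4 WT libraries of 0 and 2 h, and in KO at 11399 to 13216 in every first replicate and at 14.3 to 25.3 in every second. The fourth was at 616.7 and 4.1 at 8 h and at 625.2 and 672.7 at 24 h. The eleventh was at 110.7 and 2991.2 at 8 h and at 105.1 and 72.2 at 24 h, so a single library made the change. Over all tested features 36 had such an 8-fold difference within a pair, 16 at 8 h and 26 at 24 h.

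**Figure D5:**
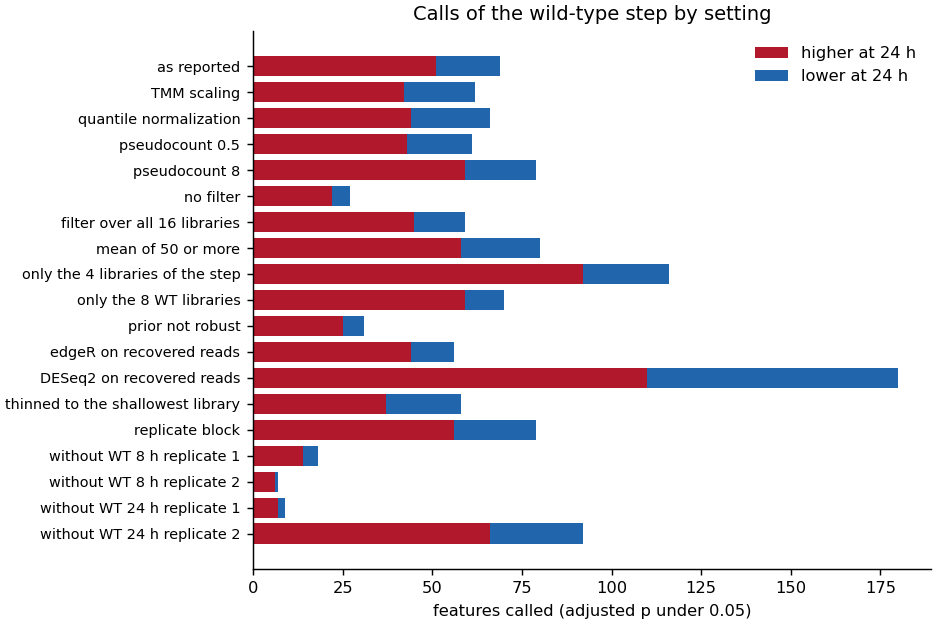
Number of features called in the WT step from 8 to 24 h (x axis, adjusted p under 0.05) under each setting (y axis), with red for higher and blue for lower at 24 h. The reported count is 69; the bars run from 7 without WT 8 h replicate 2 to 180 with DESeq2, and higher features outnumber lower ones in each.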

How the data were processed

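Polyadenylated RNA of sorted mouse cells was sequenced. The submitters' processing notes name STAR 2.6.0a, HTSeq, DESeq2 and the build GRCm38.p6, with roles, annotation and strand setting not given in the sources used here. The deposited values, headed as counts, are a normalised signal: in 100% of non-zero values, whole reads (within 0.01) times 1 factor per library. Each table has 27803 rows; a duplicate with identical values was dropped, and 7188 features were at 0 throughout.

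The test was limma 3.58.1 (R 4.3.3; trended, robust prior) on log2(value + 2), with a mean for each of 8 groups over all 16 libraries (8 residual degrees of freedom) and Benjamini-Hochberg adjustment over the 11346 features kept. edgeR 4.0.16 and DESeq2 1.42.0 on recovered reads, scaling, pseudocount, filters, thinning, a block and libraries left out were alternatives. The code was also run on simulated data, a check of the code that is no evidence for the calls. Libraries within a pair differed by more than sampling noise (chi-square per degree of freedom 4.92 to 15.8).

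The comparison, the lists and the tests were chosen with earlier results of these data known. At most 2 identifiers per direction are printed: among called features whose times did not overlap, the largest change with a mean of at least 50 in the higher group, and the highest mean of the 4 libraries among log2 changes of at least 1. The 10 largest changes per direction, and the 3 leading differences of the step per direction where cited, are given by rank; the most abundant called features and the largest uncalled changes were chosen after their values were seen. Plots used Python 3.11.15 with matplotlib 3.10.9.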

Additional observations from a re-analysis of the deposited data

Results flagged for a closer look

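The test of the difference of the step between the genotypes drew attention to 3 features. The WT step exceeded the KO step by 0.89 on the log2 scale in an abundant feature that went from 2985.4 and 3115.8 to 6175 and 5414.6 in WT. It exceeded it by 4.65 in a low feature that reached 128 and 77.9 in WT at 24 h and 1.2 and 6.3 in KO. In the remaining feature the difference was -3.97, with 1 and 2 reads in the KO libraries of 8 h. Over the alternatives the adjusted p (limma, edgeR and, for the first only, DESeq2) ranged from 0.000123 to 0.287 for the first, from 0.00304 to 0.315 for the second and from 0.000768 to 0.229 for the last. DESeq2 gave no adjusted p for the second and the last. Groups of 2 libraries are too small for a test of single outlying libraries.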

How the results depend on the processing

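The WT step kept more higher than lower calls under all 18 alternatives. Its count was 27 with no filter, 31 with a prior that was not robust, 116 with only the 4 libraries of the step, 180 with DESeq2 and 7 to 92 with a library left out; the 10 other settings gave 56 to 80, of which thinning moved the split to 37 higher and 21 lower and the 8 WT libraries alone to 59 and 11. The KO step gave 3 with a pseudocount of 0.5 and 2 to 34 with a KO library left out, and otherwise 0. The difference of the step gave 6 with quantile normalization, 10 with a pseudocount of 8, 0 with no filter (1362 at an unadjusted p under 0.05, limma), 1 with a mean of 50 or more, 0 with a prior that was not robust (908), 0 with edgeR, 21 with DESeq2 and 1 to 24 with a library left out. The step from 2 to 8 h gave 10 with no filter, 10 with a prior that was not robust, 10 with edgeR, 42 with DESeq2 and 7 to 22 with a library left out. The cause of these shifts was not tested. Median KO changes were 0.03 to 0.11 for the risen and -0.14 to 0.07 for the fallen features, the latter with both signs. ENSMUSG00000090812 and ENSMUSG00000067878 fell under a mean of 50, and DESeq2 gave no adjusted p for the former, nor for the difference of the step in the 2 low features called there.

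Libraries share replicate numbers, but no label ties a number to a mouse or day. The deviations of same-numbered WT libraries of 8 and 24 h correlated with r = 0.12 across features, and those of KO with r = 0.038. Yet a feature described above followed the number in KO, at 11399 to 13216 in every first replicate and 14.3 to 25.3 in every second. What the number stands for was not tested. The replicate block was a single term for the number, shared by WT and KO, so a separate pairing within each genotype was not fitted. With the replicate block the WT step gave 79 calls (68 of the 69 kept), the KO step 0 (806 at an unadjusted p under 0.05, limma), the difference of the step 5 and the step from 2 to 8 h 20. Depth limits low features, as does a design of 2 libraries a group.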
